A study of Mus musculus with 18 samples.

Results

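The genes described here are 7 markers of the neuroectoderm, the embryonic layer that gives rise to the nervous system: *Nes*, *Pax6*, *Sox1*, *Pax3*, *Zic1*, *Sox11* and *Tubb3*. They were taken by symbol, and all 7 were found among the 55487 genes of the count table. RNA was sequenced from mouse embryonic stem cells (mESCs) of the line ES-E14TG2a kept in serum with LIF, and from embryoid bodies (EBs), cell aggregates that differentiate in culture, at 48 hr and 96 hr. Cells were IκBα-WT (IkappBalpha+/+) or IκBα-KO (IkappBalpha-/-), the latter edited in exon 1 of *Nfkbia*, which encodes the NF-κB inhibitor IκBα, and each of the 3 stages had 3 clones per genotype. Each library therefore stands for 1 clone of 1 parental line. Among libraries of the same genotype and stage, the spread is the spread between clones. Where both genotypes of a stage are pooled, the spread also includes any difference between WT and KO.

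The mESC columns of the table name the genotype, while the EB columns carry codes (D4, E14, E2, E3, H7 and H9) that appear at both EB times and that no sample label ties to a genotype. E14 is used here only as such a column code. No label says what it refers to, including whether it is linked to the name of the parental line. The 12 EB libraries were therefore grouped by time only. WT and KO mESCs were compared with each other, the stages were compared with both genotypes together, and neither the effect of the KO in EBs nor a genotype by stage interaction was analysed here. The libraries held between 29423089 and 31091857 gene counts in WT mESCs, from 34107070 to 40904247 in KO mESCs, from 28287582 to 33169091 in EBs at 48 hr and from 30570857 to 36340056 at 96 hr.

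During neural induction, ectoderm that escapes BMP signalling takes on a neural fate, and EBs pass through epiblast-like and germ-layer states in which such genes can be turned on alongside mesoderm and endoderm genes. *Sox1* is a SoxB1 transcription factor and one of the earliest genes restricted to the neural plate, and *Pax6* is a paired-box factor of forebrain, eye and neural tube progenitors. *Pax3* and *Zic1* mark the dorsal neural tube, the neural plate border and the neural crest. *Nes* encodes nestin, the intermediate filament of neural progenitors, *Sox11* encodes a SoxC factor of progenitors turning into neurons, and *Tubb3* encodes the β-tubulin widely used as a marker of neurons. None of the 7 is exclusive to the neural lineage, *Nes* and *Sox11* also being expressed in mesenchymal tissues and *Tubb3* in undifferentiated cells in culture.

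In GRCm38, *Nes* (ENSMUSG00000004891) lies at chr3:87971078-87980451, *Pax6* (ENSMUSG00000027168) at chr2:105668900-105697364, *Sox1* (ENSMUSG00000096014) at chr8:12395295-12400126 and *Tubb3* (ENSMUSG00000062380) at chr8:123411424-123422015, all on the plus strand. *Pax3* (ENSMUSG00000004872) lies at chr1:78101267-78197134, *Zic1* (ENSMUSG00000032368) at chr9:91358058-91365810 and *Sox11* (ENSMUSG00000063632) at chr12:27334264-27342574, all on the minus strand. Exons of another annotated gene covered 86 bases of *Sox1* (1.78% of its exon bases) and, on the opposite strand, 60 bases of *Zic1* (1.05%, shared with *Zic4*). The other 5 shared no exon bases with another gene.

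RefSeq promoter windows on GRCm38.p6, from 250 bases before to 50 bases after the transcription start, were found for 6 of the 7 genes (7 windows, with 2 for *Pax6*); *Pax3* had no entry. The 5 windows below belong to the genes with called changes of the best measured levels: *Nes* and *Sox11*, which were higher in 96 hr EBs than in mESCs, *Tubb3*, which was lower than in mESCs, *Pax6*, which was lower than in 48 hr EBs, and *Sox1*, which differed between the mESC genotypes. Capitals mark the GC box (GGGCGG, or CCGCCC when read from the other strand) in *Nes*, *Sox11* and *Tubb3*, the octamer (ATGCAAAT) in *Sox1* and a κB motif in *Pax6*. The windows run 5′ to 3′ on the strand of the gene, at chr3:87970843-87971142 for *Nes*, chr12:27342669-27342968 for *Sox11*, chr8:123411303-123411602 for *Tubb3*, chr8:12395269-12395568 for *Sox1* and chr2:105668646-105668945 for *Pax6*.
Nes: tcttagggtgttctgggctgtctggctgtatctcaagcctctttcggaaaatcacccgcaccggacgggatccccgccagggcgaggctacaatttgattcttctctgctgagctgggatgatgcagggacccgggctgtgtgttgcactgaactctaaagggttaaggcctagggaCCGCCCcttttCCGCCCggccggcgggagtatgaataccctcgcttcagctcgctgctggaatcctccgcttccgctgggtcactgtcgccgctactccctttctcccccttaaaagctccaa
Sox11: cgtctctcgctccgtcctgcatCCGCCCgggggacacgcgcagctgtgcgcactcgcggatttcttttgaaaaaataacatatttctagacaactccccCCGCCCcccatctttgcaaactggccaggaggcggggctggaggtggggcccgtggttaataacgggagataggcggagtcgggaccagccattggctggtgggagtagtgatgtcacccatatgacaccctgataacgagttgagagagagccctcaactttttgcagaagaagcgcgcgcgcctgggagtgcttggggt
Tubb3: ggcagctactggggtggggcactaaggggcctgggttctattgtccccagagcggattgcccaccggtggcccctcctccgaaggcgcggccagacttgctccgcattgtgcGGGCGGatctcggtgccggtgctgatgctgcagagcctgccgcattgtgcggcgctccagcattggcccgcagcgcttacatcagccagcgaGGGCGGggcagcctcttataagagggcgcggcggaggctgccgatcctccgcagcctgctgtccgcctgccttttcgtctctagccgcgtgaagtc
Sox1: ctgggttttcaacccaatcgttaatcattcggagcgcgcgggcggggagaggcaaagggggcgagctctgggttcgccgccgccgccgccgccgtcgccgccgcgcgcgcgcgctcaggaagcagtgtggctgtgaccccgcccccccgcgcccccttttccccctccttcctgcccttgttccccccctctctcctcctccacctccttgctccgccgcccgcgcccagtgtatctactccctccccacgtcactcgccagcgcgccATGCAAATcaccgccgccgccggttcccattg
Pax6: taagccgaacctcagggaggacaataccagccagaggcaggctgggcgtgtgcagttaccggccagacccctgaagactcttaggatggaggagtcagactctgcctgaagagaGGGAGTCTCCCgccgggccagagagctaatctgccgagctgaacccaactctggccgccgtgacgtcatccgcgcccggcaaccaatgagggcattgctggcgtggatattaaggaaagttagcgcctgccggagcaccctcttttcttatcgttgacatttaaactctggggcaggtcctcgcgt

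Each of the 7 windows held 16 to 37 CpG dinucleotides, against a median of 7 over all 32851 promoter windows of the same length. Most of all promoter windows held between 1 and 31, and of the 7 only that of *Sox1* (37) lay above this range. A GC box was found on either strand in 5 windows, those of *Nes*, *Sox1*, *Sox11*, *Tubb3* and *Zic1*, and in 35.7% of all promoters. The CCAAT box (CCAAT) was found in 37.4% of all promoters and in 5 of the 7 windows, the E-box CACGTG in 7.15% of all and in that of *Zic1*, while no window held a TATA box (TATAAA, 13.6% of all) or the Sox-type sequence AACAAT (10.7% of all). The octamer, which POU factors such as Oct4 bind, occurred in 1.74% of promoters and among these windows only in that of *Sox1*, 18 bases after the start. The κB motif, the sequence class that NF-κB dimers bind, occurred in 4.51% of promoters and among these windows only in the first *Pax6* window, where 2 matches on opposite strands overlap in 1 stretch from 136 bases before the start. These are matches of letters, and binding was not measured in these data.

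*Nfkbia*, the edited gene, had 34.2, 35.1 and 25.3 CPM (read counts scaled to library size) in WT mESC clones 1, 2 and 3 and 10.2, 9.44 and 10.1 CPM in KO clones 1, 2 and 3. All KO clones lay below all WT clones, with a log2 fold change of -1.67 (SE 0.14, adjusted p = 0.00489, edgeR), so the mESC libraries matched their genotype labels while transcripts of the edited gene remained. Without WT clone 2 the log2 fold change was -1.59 with an adjusted p of 0.0633 in edgeR. In EBs *Nfkbia* ranged from 7.31 to 14.9 CPM at 48 hr (median 9.67) and from 4.97 to 23.0 CPM at 96 hr (median 11.5).

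Compared per length of their exons (RPKM), *Tubb3* was by far the highest of the 7 in mESCs, with a median of 42.0 RPKM over the 6 libraries. *Nes* (4.07 RPKM) and *Sox11* (3.52 RPKM) followed, and their ranges over libraries overlapped. *Sox1* (0.661 RPKM) and *Pax6* (0.373 RPKM) formed a lower level and overlapped each other, and *Zic1* (0.0197 RPKM) and *Pax3* (0.00634 RPKM) were close to the detection limit. By 96 hr the medians were 18.0 RPKM for *Tubb3*, 13.2 for *Nes*, 11.5 for *Sox11*, 0.318 for *Sox1*, 0.160 for *Pax6*, 0.0565 for *Zic1* and 0.0266 for *Pax3*. At that stage the ranges of *Tubb3*, *Nes* and *Sox11* overlapped, while the order of the medians was as in mESCs. *Pax3* and *Zic1* rested on few reads throughout, between 0 and 31 counts per library for *Pax3* and between 2 and 27 for *Zic1*.

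**Figure D1:**
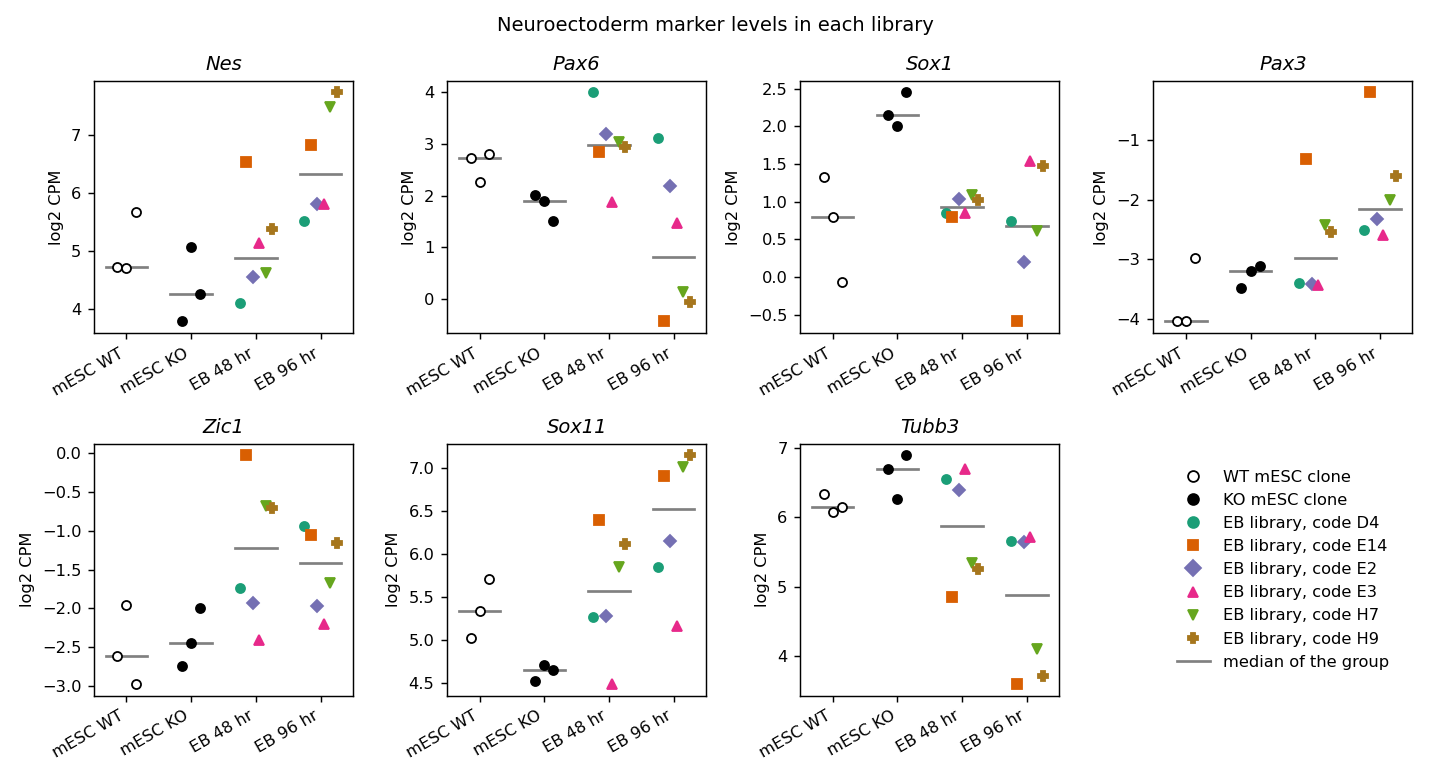
Log2 CPM (prior count of 2) of each of the 7 genes in each of the 18 libraries, grouped as WT mESCs, KO mESCs and EBs at each time; each point is 1 library, EB symbols and colours show the column code, and grey bars are group medians. The medians of *Nes*, *Sox11* and *Pax3* are highest at 96 hr and those of *Tubb3* and *Pax6* lowest there, while *Sox1* is highest in the KO mESCs.

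The first comparison asked whether the loss of IκBα altered these markers in undifferentiated mESCs. Genes were called differentially expressed (DEGs) when the Benjamini-Hochberg adjusted p, taken over every gene in the fit, was under 0.05 and the log2 fold change exceeded 1 in either direction. *Sox1* was the only one of the 6 members tested that was a DEG, and it was higher in KO clones. Across the 21843 genes tested, 1.70% were DEGs, 1.06% higher and 0.641% lower in KO. *Sox11* and *Pax6* were lower in every KO clone than in any WT clone, *Sox11* with an adjusted p under 0.05 but a fold change under the threshold, and *Pax6* with neither. Groups that did not overlap in either direction were found for 28.9% of all genes tested and for 3 of the 6 members tested.

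*Sox1* had 2.44, 1.67 and 0.891 CPM in WT clones 1, 2 and 3 (72, 51 and 27 reads) and 4.37, 3.95 and 5.40 CPM in KO clones 1, 2 and 3 (149, 161 and 198 reads). Every KO clone lay above every WT clone, and the WT clones varied more among themselves relative to their mean (1.67 ± 0.774 CPM, SD, n = 3) than the KO clones did (4.57 ± 0.744 CPM, SD, n = 3). The level was 2.73-fold higher in KO (log2 fold change 1.45, SE 0.33, adjusted p = 0.0478 in edgeR's quasi-likelihood test). The adjusted p lay just inside the threshold and was lost in 5 of the 6 fits that left out 1 clone: it was 0.0531, 0.207 and 0.147 without WT clones 1, 2 and 3, and 0.107 and 0.129 without KO clones 1 and 3, while the log2 fold change stayed between 1.14 and 1.83 in these fits.

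*Sox11* had 32.5, 40.2 and 52.1 CPM in WT clones 1, 2 and 3 and 22.9, 26.0 and 25.0 CPM in KO clones 1, 2 and 3. The KO clones were close together (24.6 ± 1.61 CPM, SD, n = 3) and all below the WT clones (41.6 ± 9.90 CPM, SD, n = 3). The log2 fold change was -0.76 (SE 0.16, adjusted p = 0.0356, edgeR), a 1.69-fold lower level, and 4.79% of all genes tested had an adjusted p under 0.05 whatever their fold change.

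*Pax6* had 6.58, 4.76 and 6.90 CPM in WT clones 1, 2 and 3 and 3.96, 3.65 and 2.78 CPM in KO clones 1, 2 and 3. The groups did not overlap, with a log2 fold change of -0.81 (SE 0.21), but the adjusted p of 0.0656 in edgeR missed the threshold. *Sox1* and *Pax6*, both transcription factors of neural progenitors, thus had fold changes of opposite sign in these cells.

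*Tubb3* had 80.3, 67.2 and 71.0 CPM in WT clones and 103, 76.5 and 119 CPM in KO clones, in the order of clones 1, 2 and 3. KO clone 2 lay within the range of the WT clones, and the log2 fold change of 0.45 (SE 0.16) did not pass (adjusted p = 0.149, edgeR). *Nes* had 26.2, 26.0 and 50.8 CPM in WT clones and 13.7, 33.5 and 19.1 CPM in KO clones, again in that order, so the groups overlapped (log2 fold change -0.64, SE 0.35, adjusted p = 0.335, edgeR). *Zic1* was at 2 to 7 reads in each of the 6 libraries (log2 fold change 0.14, SE 0.59, adjusted p = 0.922, edgeR), a depth at which only a large difference could have been seen. *Pax3* had 7 reads in all 6 libraries together and was not tested. It had no reads in WT clones 1 and 2, which allows levels of up to 0.102 and 0.0985 CPM (3 counts, counting error only).

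The genomic surroundings of the members were examined in the KO clones, since each is a separate edited line. In the 10 Mb window around *Tubb3*, the median difference of the other genes from the mean of the WT clones was 0.55, 0.23 and 0.49 on the log2 scale in KO clones 1, 2 and 3. *Tubb3* itself differed by 0.51, 0.05 and 0.72 in those clones, clone 2 having the lowest value of both the gene and its neighbours. For *Sox1*, near the other end of the same chromosome, the window medians were 0.04, 0.25 and 0.03, against 1.48, 1.30 and 1.78 for the gene. For *Sox11* the window medians were 0.02, -0.39 and 0.02, against -0.83, -0.67 and -0.70 for the gene. The windows of *Nes* and *Pax6* had medians between -0.12 and 0.02. The part of these regional shifts in the *Tubb3* values, and in that of *Sox11* in KO clone 2, was not tested.

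**Figure D2:**
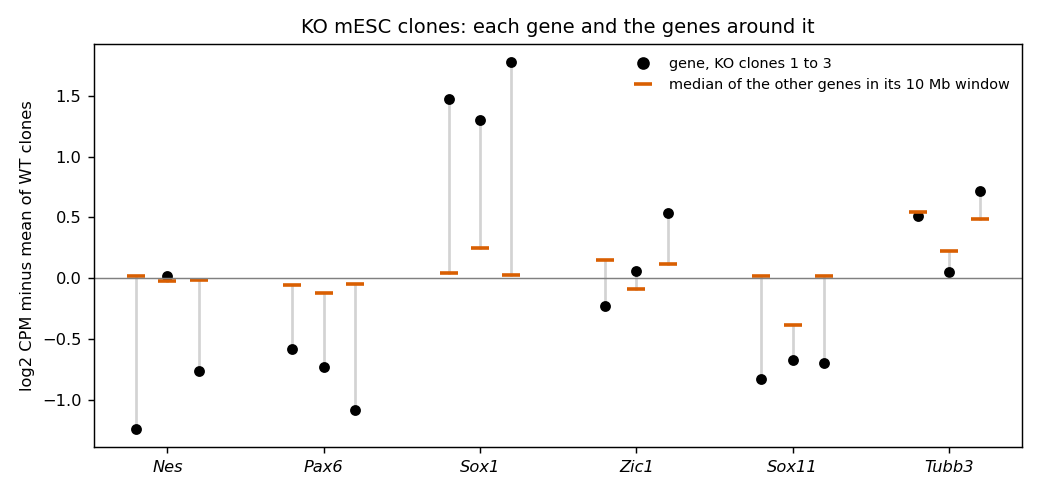
Difference in log2 CPM from the mean of the 3 WT mESC clones, for each gene (black points, KO clones 1, 2 and 3 from left to right) and the median of the other genes in its 10 Mb window (orange bars); *Pax3* was not tested in these cells. *Sox1* stands above its neighbours in all 3 KO clones (1.48, 1.30 and 1.78), while *Tubb3* lies near the window medians of 0.55, 0.23 and 0.49.

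Other neural genes were examined in the same fit, in which 1.70% of all genes were DEGs. Of 28 neural progenitor genes tested, 1 rose and 1 fell: *Meis2*, a homeobox cofactor of many tissues, went from a mean of 2.91 to 11.5 CPM (log2 fold change 1.98, SE 0.44, adjusted p = 0.0441, edgeR), and *Pou3f1*, the POU factor Oct6 of epiblast and early neural cells, from 29.6 to 7.01 CPM (log2 fold change -2.07, SE 0.37, adjusted p = 0.0233, edgeR). The median log2 fold change of the list was 0.15, against 0.01 for all genes tested. Of 13 neural plate border and crest genes tested, 1 was a DEG: *Tfap2a*, also a gene of surface ectoderm, rose from 1.30 to 2.81 CPM (log2 fold change 1.11, SE 0.23, adjusted p = 0.0360, edgeR). None of 20 neuronal genes and none of 23 relatives of the 7 genes (other SoxB1, SoxC, Pax, Zic, β-tubulin and intermediate filament genes) was a DEG in this edgeR test, although 6 and 9 of them had an unadjusted p under 0.05, and DESeq2 called 1 neuronal gene and 0 relatives. Of all 21843 genes tested, 4713 had an unadjusted p under 0.05 in the edgeR fit. Each of the calls of *Meis2*, *Pou3f1* and *Tfap2a* was lost when any of WT clones 2 and 3 and KO clones 1 and 3 was left out (adjusted p from 0.0808 to 0.203), and that of *Meis2* and *Tfap2a* also without WT clone 1 (0.0899 for both) and that of *Pou3f1* without KO clone 2 (0.0615), all from edgeR. Of 10 surface ectoderm genes, *Tfap2a* and *Trp63* were DEGs, *Trp63* with few reads. Endoderm markers varied between clones beside these changes, with a summed level of 17.5 to 22.1 CPM in WT clones and 23.0 to 118 CPM in KO clones, although none of the 9 tested was a DEG in edgeR (6 had an unadjusted p under 0.05, and DESeq2 called 3), and their part in the values above was not tested.

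The stages were compared next, to ask how the markers changed as mESCs differentiated in EBs. In 48 hr EBs *Zic1* was the only DEG of the 7, where 9.57% of the 25318 genes tested were DEGs (4.62% higher and 4.95% lower). It had 2 to 7 reads per library in mESCs and 4 to 27 in 48 hr EBs, with medians of 0.112 and 0.397 CPM. Codes E14, H7 and H9 had the highest *Zic1* levels (0.923, 0.564 and 0.555 CPM), D4 and E2 lay just above the mESC range at 0.238 and 0.202 CPM, and E3 was within that range at 0.127 CPM. The log2 fold change was 1.73 (SE 0.46, adjusted p = 0.00857, edgeR). It was 1.77 against the WT mESCs alone (adjusted p = 0.0664) and 1.65 against the KO mESCs alone (adjusted p = 0.0687, both edgeR), so the call did not hold with 3 reference libraries.

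The other 6 markers did not pass at 48 hr. *Pax6* had its highest median of the 3 stages there, 7.84 CPM (3.61 to 15.8), against 4.36 CPM (2.78 to 6.90) in mESCs, with a log2 fold change of 0.84 (SE 0.51, adjusted p = 0.242, edgeR). The log2 fold changes of *Nes*, *Sox11*, *Pax3*, *Sox1* and *Tubb3* were 0.47, 0.64, 1.61, -0.75 and -0.41, with adjusted p between 0.151 and 0.487 in edgeR. None of the 7 was separated from the mESCs in every library, as 16.7% of all genes were (8.63% higher and 8.07% lower), and 27.9% had an adjusted p under 0.05 whatever their fold. *Sox1* was at 1.68 to 2.07 CPM in all 6 libraries at 48 hr (1.86 ± 0.163 CPM, SD, n = 6), below every KO mESC clone and within the range of the WT clones.

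In 96 hr EBs 5 of the 7 markers were DEGs against mESCs, *Nes*, *Pax3*, *Zic1* and *Sox11* higher and *Tubb3* lower. Among all genes tested 20.8% were DEGs, 11.2% higher and 9.65% lower. Without the fold threshold 43.0% of all genes and the same 5 members passed, and groups did not overlap for 22.9% of all genes and for *Pax3* and *Tubb3* among the members. Neither *Sox1* nor *Pax6* was a DEG. The median log2 fold change of the 7 was 1.26, against -0.01 over all genes tested. Bulk RNA does not tell apart fewer cells expressing a gene and less RNA of it per cell.

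*Nes* ranged from 13.7 to 50.8 CPM in mESCs (median 26.1) and from 45.8 to 213 CPM in 96 hr EBs (median 84.6). Codes H9, H7 and E14 had the highest levels (213, 179 and 113 CPM), and D4, E3 and E2 the lowest (45.8, 55.7 and 56.3 CPM), the first of these within the mESC range because of WT clone 3. The level was 3.91-fold higher (log2 fold change 1.97, SE 0.46, adjusted p = 0.00210, edgeR).

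*Sox11* ranged from 22.9 to 52.1 CPM in mESCs (median 29.2) and from 35.7 to 142 CPM in 96 hr EBs (median 95.2). The E3 library, at 35.7 CPM, was the one that lay within the mESC range, and H9, H7 and E14 were highest at 142, 128 and 120 CPM. Other genes in the *Sox11* window were also low in E3. Their median log2 difference from the stage mean was -0.27 there, and -0.40 at 48 hr. At 96 hr the medians in the other codes lay between -0.01 and 0.15. *Sox11* itself differed by -1.21 in E3 at 96 hr. The part of this regional shift in the E3 value was not tested. The log2 fold change of *Sox11* was 1.48 (SE 0.35, adjusted p = 0.00211, edgeR). Against the WT mESCs alone it was 1.15 with an adjusted p of 0.0568 in edgeR, KO mESCs having the lower *Sox11* level.

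*Tubb3* went the other way. It ranged from 67.2 to 119 CPM in mESCs (median 78.4) and from 12.03 to 52.2 CPM in 96 hr EBs (median 33.6), every EB library lying below every mESC library, as did 11.6% of all genes tested. Levels were lowest for E14, H9 and H7 (12.03, 13.03 and 17.06 CPM) and close to each other for E2, D4 and E3 (50.1, 50.3 and 52.2 CPM). The log2 fold change was -1.41 (SE 0.40, adjusted p = 0.00873, edgeR), and -1.16 with an adjusted p of 0.0905 against the WT mESCs alone. *Tubb3*, the neuronal marker of the set, thus fell while *Nes* rose. *Sox1* and *Pax6*, also genes of neural progenitors, had negative log2 fold changes (-0.86 and -0.64) and were not DEGs.

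*Pax3* rose from 0 to 2 reads per mESC library to 4, 5, 4, 6, 9 and 31 reads in the 96 hr libraries of codes D4, E2, E3, H7, H9 and E14. The groups did not overlap, as for 11.3% of all genes tested in that direction, and the E14 library alone held 31 of the 59 reads. The fit gave a log2 fold change of 2.87 (SE 0.74, adjusted p = 0.00429, edgeR), at levels of at most 0.813 CPM. *Zic1* was at 0.0660 to 0.197 CPM in mESCs and 0.157 to 0.462 CPM in 96 hr EBs, with overlap from E2 and E3, and its log2 fold change of 1.26 (SE 0.46) had an adjusted p of 0.0352 in edgeR. Leaving out WT clone 1 or 3, KO clone 1 or 2, or the 96 hr library of D4, E14 or H9 raised that adjusted p to between 0.0582 and 0.0739, and it was 0.123 against the WT mESCs alone and 0.135 against the KO mESCs alone.

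*Sox1* ranged from 0.891 to 5.40 CPM in mESCs and from 0.603 to 2.83 CPM in 96 hr EBs (median 1.54), with a log2 fold change of -0.86 (SE 0.38, adjusted p = 0.0778, edgeR). This value followed the mESC genotype, being -1.39 (adjusted p = 0.00722) against the KO mESCs and 0.05 (adjusted p = 0.944) against the WT mESCs, both from edgeR. *Sox1* also became a DEG, with log2 fold changes from -1.04 to -1.06 and adjusted p from 0.0224 to 0.0488 in edgeR, when WT clone 3 or the 96 hr library of E3 or H9 was left out. *Pax6* ranged from 0.682 to 8.58 CPM at 96 hr (median 1.87), with a log2 fold change of -0.64 (SE 0.51, adjusted p = 0.335, edgeR). It was lowest for E14, H9 and H7 (0.682, 0.898 and 1.05 CPM) and highest for D4 (8.58 CPM), and without the D4 library the log2 fold change was -1.28 with an adjusted p of 0.0314 in edgeR.

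**Figure D3:**
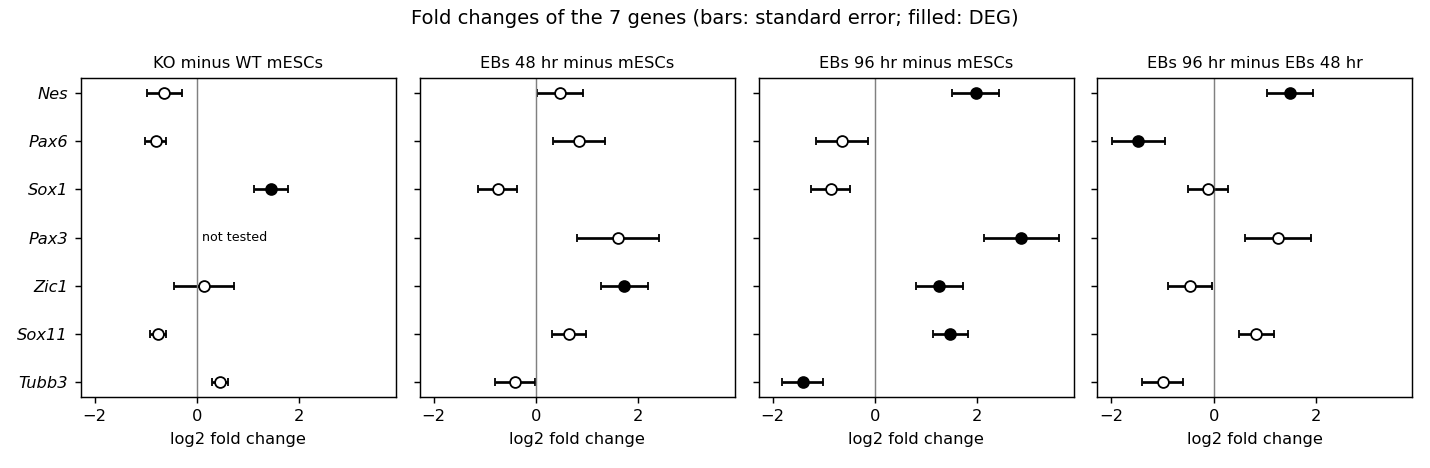
Log2 fold changes of the 7 genes (points) with their standard errors (bars) in the 4 comparisons, from edgeR; filled points are DEGs and the vertical line marks no change. Among DEGs, *Sox1* is the one in KO against WT mESCs (1.45) and *Zic1* the one at 48 hr (1.73), while 4 markers are higher and *Tubb3* is lower (-1.41) at 96 hr against mESCs.

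Between 48 hr and 96 hr the libraries that share a code could be followed. Their deviations from the stage means correlated for all 6 codes (0.40 to 0.73; 5 of the 6, E14 being the exception, correlated best with their own code), so the code was also used as a block. Without the block 2 markers were DEGs in edgeR, *Nes* higher and *Pax6* lower, where 11.9% of all genes tested were DEGs (7.10% higher and 4.76% lower). No member passed without the fold threshold that was not a DEG (27.7% of all genes passed so), and the 2 stages overlapped for all 7 members, where 8.94% of all genes did not overlap (4.17% higher and 4.77% lower). With the block *Tubb3* and *Pax3* were DEGs as well, in a fit that called 14.8% of all genes. The direction was the same in all 6 codes for 5 of the 7 markers, higher for *Nes*, *Pax3* and *Sox11* and lower for *Pax6* and *Tubb3*, where 34.5% of all genes had the same direction in all 6 (15.9% higher and 18.7% lower).

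*Nes* went from 24.6 to 179 CPM in H7 and from 41.6 to 213 CPM in H9, the largest rises, and from 92.7 to 113 CPM in E14, the smallest. D4, E2 and E3 rose from 17.1 to 45.8, from 23.5 to 56.3 and from 35.3 to 55.7 CPM. E14 thus already had at 48 hr a *Nes* level above that of D4, E2 and E3 at 96 hr. This gave a log2 fold change of 1.496 (SE 0.45, adjusted p = 0.0205 in edgeR, and 0.0151 with the block). Without the 96 hr library of H7 or H9 the adjusted p was 0.0502 or 0.0625, and without either code at both times it was 0.0981 or 0.0858, the log2 fold change remaining between 1.201 and 1.304.

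*Pax6* fell in every code, with log2 differences of -3.27, -2.99 and -2.89 in E14, H9 and H7, and of -1.01, -0.88 and -0.41 in E2, D4 and E3. At 48 hr the first 3 of these codes were at 7.08, 7.55 and 8.14 CPM, within the range of the others (3.61 to 15.8 CPM), and at 96 hr they were below all others. In the fit over all codes it was -1.48 (SE 0.52, adjusted p = 0.0407 in edgeR), and -1.84 with the block (adjusted p = 0.0161). The call without the block was lost when any of 8 of the 12 EB libraries was left out (48 hr D4, E2, H7 or H9, or 96 hr E14, E3, H7 or H9), with adjusted p between 0.0550 and 0.110.

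*Tubb3* was at 94.0, 84.0 and 103 CPM at 48 hr in D4, E2 and E3 and at 28.8, 40.4 and 38.0 CPM in E14, H7 and H9. It fell in each code, with log2 differences from -0.75 to -1.54, the differences between codes at 48 hr being still present at 96 hr. Medians of the other genes in the *Tubb3* window, as log2 differences from the stage mean, also varied by code. At 48 hr they were 0.35, 0.30 and -0.01 in D4, E2 and E3, and -0.19, -0.20 and -0.21 in E14, H7 and H9. At 96 hr they were 0.33, 0.34 and 0.02, and -0.25, -0.23 and -0.24, in that order. Each was smaller in size than the difference of *Tubb3* itself. The part of these regional shifts in the *Tubb3* values was not tested. Over all codes the log2 fold change of *Tubb3* was -0.997 (SE 0.40, adjusted p = 0.0704), and -1.08 with the block (adjusted p = 0.000159, both edgeR). The DESeq2 Wald test, without a block, made *Tubb3* a DEG (adjusted p = 0.0408). *Sox11* rose by 0.51 to 1.15 in the 6 codes, from 22.3 CPM at the lowest (E3) and 84.2 at the highest (E14) to 35.7 and 120 CPM in the same codes. Its log2 fold change of 0.83 (SE 0.34) had an adjusted p of 0.0751, and 0.000330 with the block (both edgeR), with a fold change under the DEG threshold in each fit. *Pax3* rose by 0.43 to 1.12 in the 6 codes (log2 fold change 1.26, SE 0.64, adjusted p = 0.155, and 1.30 with an adjusted p of 0.0132 with the block, both edgeR). Without the block, leaving out the 48 hr library of E14 made *Tubb3*, *Sox11* and *Pax3* DEGs (adjusted p of 0.0372, 0.0349 and 0.0330 in edgeR). Leaving out the 96 hr library of E3 did so for *Tubb3* and *Sox11* (0.0375 and 0.0219), and that of D4 or E2 for *Tubb3* (0.0471 and 0.0493). *Sox1* and *Zic1* had no common direction, each being higher at 96 hr in 2 codes and lower in 4, with log2 fold changes of -0.11 (SE 0.39) and -0.47 (SE 0.43) and adjusted p of 0.861 and 0.439 in edgeR.

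**Figure D4:**
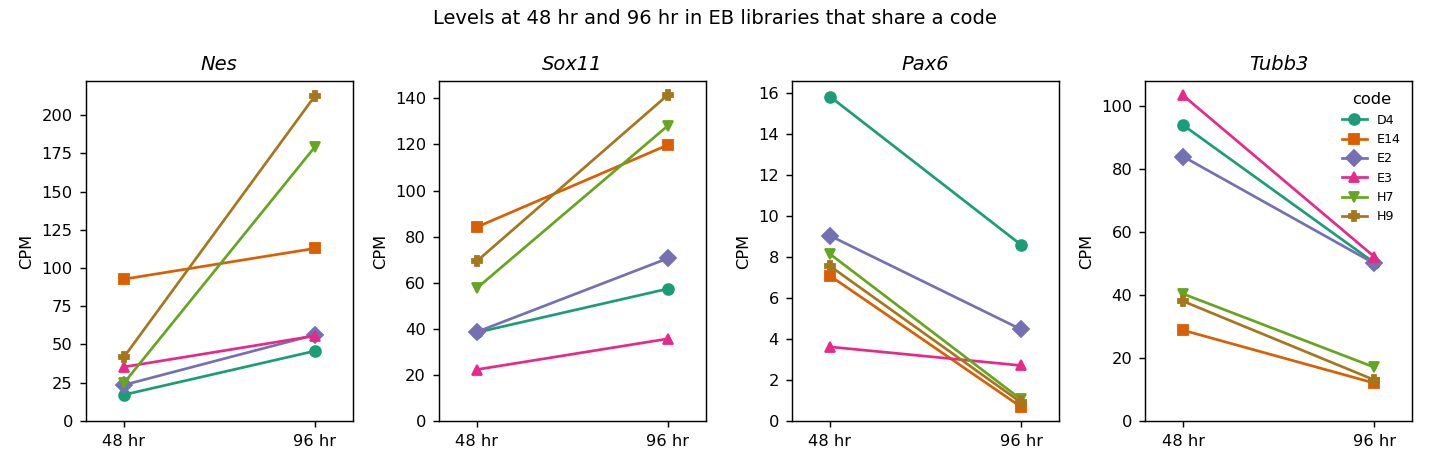
CPM of *Nes*, *Sox11*, *Pax6* and *Tubb3* at 48 hr and 96 hr, each line joining the 2 EB libraries that share a column code. *Nes* and *Sox11* rise and *Pax6* and *Tubb3* fall in all 6 codes, with the steepest rise of *Nes* in H9 and H7 (to 213 and 179 CPM).

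Over the 18 libraries the members did not move as one group. Log2 CPM of *Sox11* correlated with that of *Nes* (Pearson r = 0.853) and of *Pax3* (0.808), and both *Sox11* (-0.939) and *Nes* (-0.888) ran opposite to *Tubb3*. *Pax6* correlated with *Tubb3* (0.642) and ran opposite to *Nes* (-0.673), and *Sox1* had its strongest correlation, -0.578, with *Sox11*. These values describe 18 libraries that share 3 stages, 2 genotypes and the EB codes, and so carry no p. Of the 13176 genes averaging 50 or more reads per library, those most like *Nes* were *Gria3* (r = 0.950), *Acadl* (0.941) and *Colec12* (0.940). Those most like *Sox11* were *Cnn1* (0.972), *Ppt2* (0.964) and *Dlg4* (0.962), and those most like *Tubb3* were *Cdc42ep3* (0.977), *Manba* (0.975) and *2500002B13Rik* (0.973). *Diaph1* (0.950), *Gk5* (0.943) and *Srpr* (0.939) were most like *Pax6*. The closest to *Sox1* was *Pou4f1* at 0.749, a weaker likeness than for the other well measured members, followed by *Gprasp2* (0.739) and *Tmx2* (0.729). The sparse counts of *Pax3* and *Zic1* gave *Slco3a1* (0.942), *Cobll1* (0.940) and *Pbx3* (0.939) for the former and *Eif4enif1* (0.881), *Cpsf7* (0.867) and *Ildr2* (0.850) for the latter.

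Other genes of the neural lineage changed in both directions. Of 32 neural progenitor genes, 8 rose and 4 fell at 48 hr, and 15 rose and 5 fell at 96 hr against mESCs, with a median log2 fold change of 0.71 and 1.12. Over all genes tested, 4.62% rose and 4.95% fell as DEGs at 48 hr, and 11.2% and 9.65% at 96 hr. *Sox3*, the SoxB1 relative of *Sox1*, rose from a median of 1.45 CPM in mESCs to 10.3 CPM at 48 hr (log2 fold change 2.65, SE 0.37, adjusted p = 3.05e-05) and 12.5 CPM at 96 hr (2.95, SE 0.37, adjusted p = 6.12e-06, both edgeR). *Sox2*, the third SoxB1 gene and also a pluripotency factor, fell from 450.8 to 198.7 and 142 CPM (log2 fold change -1.64 at 96 hr, SE 0.29, adjusted p = 0.000164, edgeR). Between 48 hr and 96 hr 9 of the list rose and 2 fell, where 7.10% of all genes tested rose and 4.76% fell. *Pou3f1* rose from 14.2 to 73.9 CPM at 48 hr (log2 fold change 2.05, SE 0.55, adjusted p = 0.00927, edgeR; 1.32 with 0.126 against WT mESCs alone), and *Ncam1*, a neural cell adhesion molecule, fell from 11.1 to 2.92 CPM (-1.98, SE 0.42, adjusted p = 0.00155, edgeR). At 96 hr *Cdh2*, which encodes N-cadherin, rose from 3.16 to 31.7 CPM (log2 fold change 4.38, SE 0.78, adjusted p = 0.000210) and *Zeb2*, a factor of neural and mesenchymal cells, from 1.66 to 12.2 CPM (3.42, SE 0.76, adjusted p = 0.00142, both edgeR). The midbrain gene *En2* fell from 4.72 to 1.54 CPM (-1.74, SE 0.27, adjusted p = 4.43e-05, edgeR).

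Of 14 neural plate border and crest genes, the group nearest to *Pax3* and *Zic1*, 2 rose and 1 fell at 48 hr, and 5 rose and 1 fell at 96 hr. The shares of all genes that rose and fell were 4.62% and 4.95% at 48 hr, and 11.2% and 9.65% at 96 hr. *Msx1*, a homeobox gene of the border that is also a BMP target in mesoderm, rose from 0.442 to 4.13 CPM at 48 hr (log2 fold change 3.41, SE 0.67, adjusted p = 0.000799) and 11.1 CPM at 96 hr (5.53, SE 0.71, adjusted p = 8.35e-06, both edgeR). *Ets1*, a factor of cranial crest and of endothelium, rose from 3.87 to 14.3 CPM at 96 hr (2.78, SE 0.49, adjusted p = 0.000187, edgeR), and *Ngfr*, the neurotrophin receptor p75, fell from 18.9 to 6.24 CPM (-1.37, SE 0.38, adjusted p = 0.00704, edgeR). Against the WT mESCs alone the adjusted p of *Ngfr* was 0.0689 in edgeR.

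Of 23 genes of neurogenesis and neurons, which share the role of *Tubb3*, 2 rose and 5 fell at 48 hr, and 4 rose and 7 fell at 96 hr. Among all genes 4.62% rose and 4.95% fell at 48 hr, and 11.2% rose and 9.65% fell at 96 hr. *Stmn2*, a microtubule regulator of growing axons, fell from 321 to 73.2 CPM at 48 hr (log2 fold change -2.20, SE 0.28, adjusted p = 1.54e-05) and 41.2 CPM at 96 hr (-2.94, SE 0.29, adjusted p = 5.11e-07, both edgeR). *Mapt*, which encodes the microtubule protein tau, fell from 15.1 to 0.858 CPM at 96 hr (-3.79, SE 0.42, adjusted p = 1.43e-06, edgeR). *Syp*, which encodes the synaptic vesicle protein synaptophysin, rose from 1.51 to 5.66 CPM at 96 hr (1.81, SE 0.38, adjusted p = 0.000846, edgeR), and *Nefl*, the light neurofilament, rose from 23.8 to 62.0 CPM at 48 hr (1.40, SE 0.48, adjusted p = 0.0373, edgeR). The call of *Nefl* was lost when WT clone 1 or 2, KO clone 1 or 2, or the 48 hr library of E14, H7 or H9 was left out (adjusted p from 0.0610 to 0.0971). It was also lost against the WT mESCs alone (adjusted p = 0.185) and against the KO mESCs alone (0.127, both edgeR). Summed over the list, the level was 744 to 921 CPM in the mESC libraries and 340 to 438 CPM in 96 hr EBs, a sum to which *Stmn2* alone contributed a median of 321 and 41.2 CPM. The median log2 fold change of the list was -0.19 at both EB times, against 0.00 and -0.01 over all genes tested.

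Of 25 tested relatives of the 7 genes, 3 rose and 1 fell at 48 hr, and 6 rose and 4 fell at 96 hr. All genes tested gave 4.62% higher and 4.95% lower at 48 hr, and 11.2% and 9.65% at 96 hr. The β-tubulin *Tubb4a* rose from 1.74 to 7.47 CPM at 96 hr (log2 fold change 2.16, SE 0.75, adjusted p = 0.0263, edgeR), opposite to *Tubb3*, and its adjusted p was between 0.0517 and 0.0588 without KO clone 1 or 3 or the 96 hr library of E14 or H7. Against the WT mESCs alone the adjusted p of *Tubb4a* was 0.194, and against the KO mESCs alone 0.0693, both from edgeR. *Pax8*, a paired-box factor of kidney and thyroid, fell from 4.52 to 1.15 CPM (-1.998, SE 0.46, adjusted p = 0.00181, edgeR), and *Vim*, the intermediate filament vimentin, went from 46.2 CPM at 48 hr to 67.2 CPM at 96 hr (1.49, SE 0.54, adjusted p = 0.0479, edgeR). With the code as a block *Vim* was no longer a DEG (0.68, adjusted p = 0.432), and of the 12 EB libraries its call held only without the 96 hr library of D4, E2 or E3. The 96 hr library of E14 weighed most (0.80 without it, adjusted p = 0.221, edgeR).

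Markers of other lineages were followed in the same libraries. Of 13 mesoderm genes, none was a DEG at 48 hr in edgeR (1 had an unadjusted p under 0.05, and DESeq2 called 1), and 12 rose and none fell at 96 hr against mESCs, among them *T* (brachyury; median 0.238 to 135 CPM) and *Mixl1* (0.840 to 35.8 CPM). Their summed level was 12.2 to 30.3 CPM in mESCs, 15.6 to 81.0 CPM at 48 hr and 20.6 to 1389 CPM at 96 hr. The 96 hr libraries were uneven, with 1389, 995 and 632 CPM for E14, H9 and H7. Those of E2, D4 and E3 had 36.8, 34.5 and 20.6 CPM, within or close to the mESC range, so the mesoderm medians at 96 hr do not describe every library. Over all 25318 genes tested, 9667 had an unadjusted p under 0.05 at 48 hr in edgeR. The DEG shares of all genes were 4.62% higher and 4.95% lower at 48 hr, and 11.2% and 9.65% at 96 hr. Of 12 endoderm genes, 6 rose at 96 hr (summed level 35.4 to 399 CPM), and of 10 surface ectoderm genes 2 rose, *Krt8* and *Krt18*, the former with an adjusted p of 0.113 in edgeR without the 96 hr library of E14. Against the WT mESCs alone the adjusted p was 0.166 for *Krt8* and 0.0692 for *Krt18* in edgeR. For *Krt8* it was 0.0531 against the KO mESCs alone. Of 11 pluripotency genes, 7 fell at 48 hr and 9 fell at 96 hr, with summed levels of 3421 to 4434 CPM in mESCs, 1521 to 2386 CPM at 48 hr and 725 to 1738 CPM at 96 hr. The part of mesoderm and of remaining pluripotent cells in the levels of *Nes*, *Sox11*, *Pax6* and *Tubb3* in EBs was not tested.

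**Figure D5:**
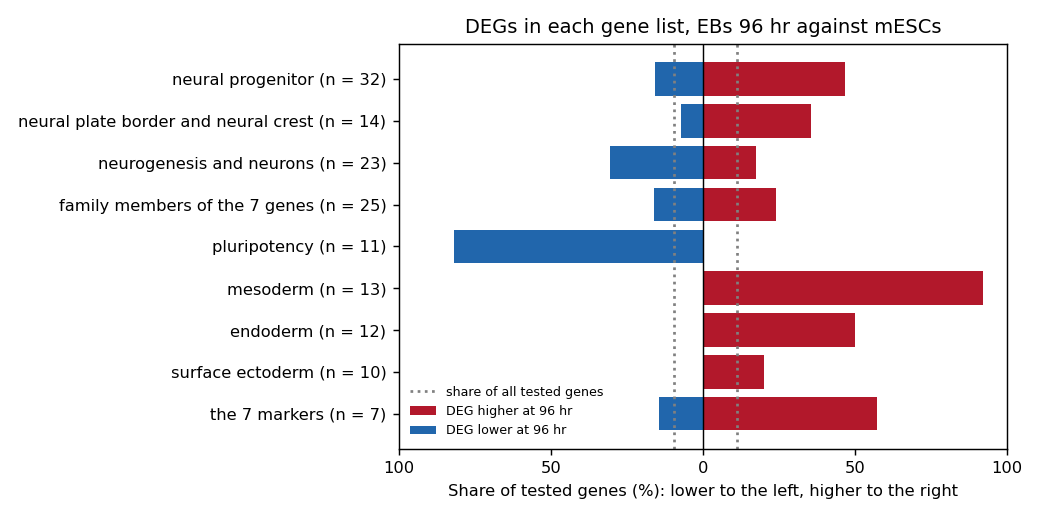
Share of the tested genes of each list that were DEGs in 96 hr EBs against mESCs, higher to the right and lower to the left, with the number tested beside each name; dotted lines give the shares among all genes tested (11.2% higher, 9.65% lower). Of 32 progenitor genes 15 are higher and 5 lower, of 23 neuronal genes 4 are higher and 7 lower, and 12 of 13 mesoderm genes are higher.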

How the data were processed

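RNA-seq libraries of mESCs and of EBs at both times were analysed from the count table. The authors trimmed reads (Trim Galore 0.6.6), aligned them to GRCm38 (STAR 2.7.8), counted them per gene (featureCounts, Subread 2.0.1) and deposited whole-number counts without normalization; their DESeq2-normalized table was not used.

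In R 4.3.3, edgeR 4.0.16 (TMM scaling, robust quasi-likelihood test, two-sided) was fitted to genes holding 10 or more counts summed over the fitted libraries: the 6 mESC libraries for genotype (21843 genes, 0.0135% of counts set aside) and all 18 libraries for stage (25318 genes). The stage fit took the 18 libraries as independent, with no term for genotype or EB code, although codes recur between the EB times. Its SE and adjusted p therefore also carry any difference between WT and KO within a stage. No label ties an mESC library to an EB code. The DEG rule was a Benjamini-Hochberg adjusted p below 0.05 with a log2 fold change beyond 1 in either direction. SE was taken from the fold change and its F statistic. CPM used TMM sizes of the 18 libraries, log2 CPM a prior count of 2, and RPKM the merged exon length in GENCODE vM21, to which 55141 of 55487 genes matched.

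The members and the 8 gene lists were chosen with earlier results of these data known. Genes named are the 7 members, *Nfkbia*, the 2 largest increases and 2 largest decreases among each list's DEGs averaging 50 or more reads, and the 3 genes most correlated with each member; *Trp63* was named after its values were seen. From these, the text gives those that bear on the members. Window medians used tested genes averaging 50 or more reads.

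Same-numbered WT and KO mESC libraries did not deviate together (correlations -0.12, -0.01 and -0.03), so the numbers do not pair them; EB libraries sharing a column code did (0.40 to 0.73), so the code is used as a pairing from the data. Across 36 pairs of libraries within groups, none agreed within sampling noise (lowest chi-square per degree of freedom 5.04). KO mESC clone 2 stood apart from KO clones 1 and 3 (48.4 and 54.9). Clones 1 and 3 of the KO gave 7.71 with each other, and pairs of WT clones 5.04 to 10.5. On simulated counts with 200 genes changed by 2 on the log2 scale, the genotype fit called 97.5% of them and 12 unchanged genes among 21408, and the 96 hr against mESC fit 94.5% and 4 among 24832. Alternatives were DESeq2 1.42.0 scaling and test, other count filters, no fold threshold, each library left out, WT or KO mESCs alone as reference, the 12 EB libraries alone, and the replicate block; leaving out a code at both times was added after seeing the data.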

Additional observations from a re-analysis of the deposited data

How the results depend on the processing

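The number of DEGs in KO against WT mESCs was 372, and 570 with the DESeq2 Wald test and 1046 without the fold threshold. It ranged from 0 to 872 when 1 clone was left out: 174, 0 and 25 without WT clones 1, 2 and 3, and 198, 872 and 114 without KO clones 1, 2 and 3. Without WT clone 2, edgeR still gave 3104 genes an unadjusted p under 0.05. For 48 hr EBs against mESCs it was 2422, 7053 without the fold threshold, 1520 against WT mESCs alone and 2078 to 2836 with 1 library or code left out. For 96 hr EBs against mESCs it was 5278, 10894 without the fold threshold and 4558 to 6165 with 1 left out. For 96 hr against 48 hr EBs it was 3003, 7019 without the fold threshold and 1936 to 4154 with 1 left out, the lowest without code H7 at both times. As a replicate block the mESC clone number, which does not pair the clones, gave 261 DEGs and took *Sox1* (adjusted p = 0.0652) and *Tfap2a* (0.0665) out of the DEGs; no clone correlated best with its own number. The EB code as a replicate block gave 3535 DEGs, and beside the members it ended the calls of *Vim* and *Kdr* between 48 hr and 96 hr. Among the alternatives run, directions of the members and *Nfkbia* changed only where no call was made: *Sox1* was at 0.13 and 0.047 (log2) at 48 hr and 96 hr against WT mESCs alone, and between 48 hr and 96 hr at 0.10, 0.035 and 0.0092 without the 96 hr library of E14, code E14 or code E2, over a range from -0.33 to 0.10. *Zic1* in KO against WT mESCs was at -0.16 without WT clone 3 and -0.20 without KO clone 3, over a range from -0.20 to 0.65. *Nfkbia* was at 0.044 and 0.41 at 48 hr and 96 hr against KO mESCs alone. The cause was not tested. *Pax6* between 48 hr and 96 hr also missed the threshold at a minimum of 1 count (adjusted p = 0.0688) and with the 12 EB libraries alone (0.0901). DESeq2 size factors moved the median of all genes by less than 0.1. *Pax3* and *Zic1* rest on at most 31 and 27 counts per library.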

Other observations

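Within each EB stage the values of several genes fell into separate ranges by column code. Summed CPM of the mesoderm list at 96 hr was 1389 for E14, 995 for H9 and 632 for H7, and 36.8 for E2, 34.5 for D4 and 20.6 for E3. Summed CPM of the pluripotency list at 96 hr was 725 for E14, 1101 for H9 and 1325 for H7, and 1524 for E2, 1707 for E3 and 1738 for D4. Neural progenitor genes summed to 1320 CPM for E14, 1172 for H9 and 1005 for H7, and to 897 for E2, 866 for D4 and 784 for E3. *Tubb3* was at 12.03, 13.03 and 17.06 CPM in E14, H9 and H7 and at 50.1, 50.3 and 52.2 CPM in E2, D4 and E3, and the ranges of *Nes*, *Sox11* and *Pax6* at 96 hr were also separate for these codes. The neuronal list gave no such separation at 96 hr, with 340 CPM for E14, 349 for E2, 358 for D4, 382 for E3, 390 for H9 and 438 for H7. At 48 hr the ranges of *Tubb3*, *Sox11* and, at few reads, *Zic1* and *Pax3* were already separate for these codes. Those of *Nes*, *Pax6* and *Sox1* overlapped. The sums of the pluripotency, neural progenitor, neuronal, surface ectoderm and relatives lists were separate at 48 hr as well. The mesoderm list was at 81.0 CPM for E14 and between 15.6 and 28.7 CPM for the other 5. The codes were set apart here by these same values, and the share of all genes that separate in this way was not counted. The separation is therefore no result about the markers in particular. No sample label gives the genotype of a code, and no test was made on these codes.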
